A study of Homo sapiens with 6 samples.

Results

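The zinc finger genes of chromosome 19 were examined in cells labelled HepG2, a human hepatocellular carcinoma line, after treatment with polydatin (PD), a glucoside of resveratrol. Members were the protein-coding rows of the expression table that lie on chromosome 19 and carry a symbol made of ZNF, a number and at most 1 further letter. Of the 28563 genes in the table, 208 met this rule. GENCODE 44 lists 246 genes of this kind on chromosome 19, and those outside the table were not analysed here. The study had 6 poly(A) RNA-seq libraries, 3 from PD plates and 3 from plates given DMSO, the solvent control. The labels give the PD dose as 336 µM and the time as 24 h, while the study's text gives another dose. All plates came from a single line grown in the same way, so the libraries differ as plates and not as donors, and p-values measure the spread between plates.

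Zinc finger genes of this kind code for proteins with a row of C2H2 fingers, short folds held by a zinc ion, each of which contacts a few bases of DNA. Many also carry a KRAB domain, which recruits the corepressor TRIM28 and through it the H3K9 methyltransferase SETDB1 and the HP1 proteins, and this machinery is known for the silencing of transposable elements. On chromosome 19 the genes stand in clusters that arose by repeated local duplication, so neighbours resemble each other in sequence. Among the 208 members, 174 had a KRAB A box in their translated GENCODE coding sequence and 34 had none, and the members had a median of 12 C2H2 finger patterns with a range from 1 to 36. The box was called from at least 15 identities to a 40-position consensus of these proteins. Members with a box had 18 or more, and those without had at most 13.

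The libraries held between 16308476 and 18071632 fragments, worked back from the FPKM values (fragments scaled to exon length and to the mapped fragments of the library), and 99.76% of them fell on genes of the table. The label of the cells was checked against 20 hepatocyte markers, of which 10 were in the table, and 8 of these stayed below 1 FPKM in every library. ALB, AFP, APOA2, APOB, APOC3, APOH, TTR, FGB, AHSG and FOXA2 had no row, so no level can be given for them. APOA1, a major apolipoprotein of hepatocytes and of HepG2, lay between 0 and 0.172 FPKM, and HNF4A, the hepatocyte nuclear receptor, between 0.016 and 0.106 FPKM. SERPINA1 was listed at 0 in all 3 DMSO libraries. CPS1, the urea cycle enzyme, was abundant at 222 to 229 FPKM in DMSO and 106 to 111 FPKM in PD, and RBP4 reached 1 FPKM in PD only. Of 4 epithelial genes, KRT8, KRT18 and EPCAM reached 1 FPKM, as did the mesenchymal genes VIM, CDH2 and COL1A1, and the 1 blood gene in the table did not. The summed level ranged from 95.4 to 101 FPKM in DMSO and 114 to 120 FPKM in PD for the epithelial list, and from 26.1 to 27.2 against 36.1 to 37.7 FPKM for the mesenchymal list. APOA1, HNF4A and SERPINA1 were thus absent or near 0, unlike CPS1, and the cells are called by their label only. The part of these marker levels in the results was not tested.

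Zinc finger genes of chromosome 19 were weakly expressed. The median of the members' mean FPKM was 1.47, 3 members exceeded 10 FPKM, 113 lay between 1 and 5 FPKM, and 47 stayed below the minimum of 0.5 FPKM set for testing. Of these 47, 27 stayed below 0.1 FPKM. Between 10 and 16 members had no fragment in a given library. Summed over the members, the level was 422, 426 and 416 FPKM in DMSO and 410, 383 and 397 FPKM in PD, so the PD libraries were all lower than the DMSO libraries. Without ZNF146, ZNF121, ZNF302 and ZNF787 it was 344, 346 and 340 FPKM in DMSO and 353, 330 and 341 FPKM in PD. The groups then overlapped. ZNF317, the next in abundance, had a higher mean in PD and was kept. The genes left out each had a lower mean in PD, so their removal takes more from the DMSO sums. The overlap thus follows in part from the choice of genes and is no separate result. As a share of all fragments, all members together, with those genes included, held 0.219% to 0.228% in DMSO and 0.196% to 0.214% in PD. In bulk RNA, fewer cells that express a gene and less RNA per cell cannot be told apart. ZNF146, whose protein consists of fingers without a KRAB domain, gave the highest level at 43.0 ± 1.06 FPKM in DMSO and 30.03 ± 1.99 FPKM in PD (SD, n = 3).

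PD was compared with DMSO with limma on log2(FPKM + 1) over the 14400 genes that averaged 0.5 FPKM or more, and a gene was called at an adjusted p of at most 0.05. Of the 208 members, 161 were tested, 30 were higher in PD, 31 were lower and 100 were not called. Over all genes tested, 58.1% were called, 31.9% as higher and 26.2% as lower, whereas the members' share was 37.9%, with 18.6% higher and 19.3% lower. Under upper quartile scaling of the libraries, 21 members were higher and 37 lower. In all 61 called members the PD libraries did not overlap the DMSO libraries. That separation was seen in 84 of the 161 tested members (52.2%) and in 65.4% of all genes tested. Smaller changes were common among the members, since 92 of the 161 had an absolute log2 fold change below 0.2. Their median log2 fold change was -0.003 with quartiles of -0.19 and 0.17, and the median over all genes was 0.012 with quartiles of -0.25 and 0.29. The median absolute change was 0.18 for the members and 0.27 for all genes.

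No member was called with a change of at least 2-fold in either direction by limma on this scale. At the same adjusted p of at most 0.05, 2.04% of all genes were called as higher by 2-fold and 1.57% as lower. The members' log2 fold changes on this scale ran from -0.82 to 0.80, so no threshold on p, such as an unadjusted p below 0.05, could give a 2-fold call. This scale understates the change of weak genes, because 1 is added to values that are often near 1. With limma voom on the fragments, 15116 genes and 177 members could be fitted, 46.3% of these members were called against 62.4% of all genes, and 7 members were called as higher by 2-fold and 1 as lower. Over all genes that fit called 6.76% as higher by 2-fold and 4.85% as lower. The 7 were ZNF296, ZNF837, ZNF823 and ZNF846, together with ZNF490, ZNF442 and ZNF799, which were too weak for the FPKM fit, and the 1 was ZNF221. The last 3 of the 7 were picked out after their values were seen, and they lie in the same cluster. Of these, ZNF490 reached the minimum of 10 fragments for voom in its PD libraries only.

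The 161 tested members were set beside other genes of their kind as a description. Other protein-coding genes of chromosome 19 were called in 63.2% of 641 cases, 270 higher and 135 lower, with a median log2 fold change of 0.11. ZNF genes on other chromosomes were called in 57.3% of 199 cases, 55 higher and 59 lower, with a median of 0.01 and a median absolute change of 0.23. Their median level was 3.58 FPKM and thus above the 1.82 FPKM of the tested members. For a closer match, protein-coding genes with an FPKM and an exonic GC content inside the members' 10th to 90th percentile (0.727 to 4.66 FPKM, 38.9% to 59.3% GC) were taken. Of these 2421 genes, 56.2% were called, against 37.4% of the 107 members in the same range. In the 25th to 75th percentile range, however, the shares were 54.9% of 408 genes and 52.4% of 42 members, so the gap depended on the range chosen. No test of the difference was made.

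By the number of fragments, the members' share was lower in the middle classes and close to that of other genes in the lowest and highest. Between 50 and 99 fragments per library, 26.2% of 42 members were called against 48.7% of 587 other protein-coding genes. At 200 to 399 fragments the shares were 36.8% of 38 members and 60.4% of 1595 genes, while at 400 or more they were 70% of 20 members and 69.3% of 7449 genes. Of these 20 members, 3 were higher (15%) and 11 were lower (55%), and of the 7449 genes 38.8% were higher and 30.5% lower. At 20 to 49 fragments the shares were 40% of 10 members and 37.6% of 338 genes.

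**Figure D1:**
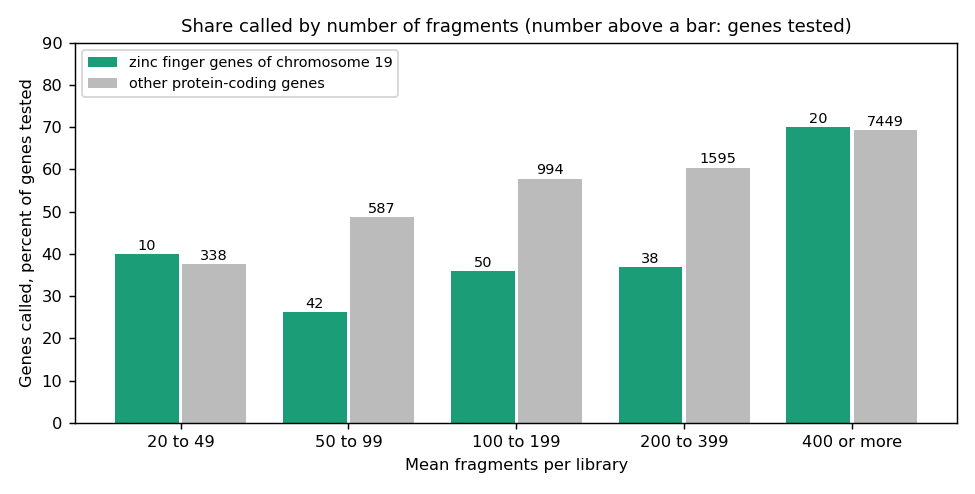
Share of genes called in PD against DMSO, in percent of genes tested (vertical axis), by mean fragments per library (horizontal axis), for zinc finger genes of chromosome 19 (green) and other protein-coding genes (grey), with the number tested above each bar. The members' bar is lower in the 3 middle classes, such as 36% against 57.8% at 100 to 199 fragments, and close to the other bar at 400 or more. The 1 tested member below 20 fragments is left out.

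On the log2(FPKM + 1) scale the largest rise was that of ZNF296, a C2H2 gene without a KRAB box (chr19:45071500-45076478, minus strand, GRCh38). Its FPKM was 2.09, 2.02 and 1.98 in DMSO and 4.03, 4.06 and 4.71 in PD, so every PD library was above every DMSO library, with a log2 fold change of 0.80 ± 0.07 (SE) and an adjusted p of 6.8e-05. The largest fall on that scale was that of ZNF121 (chr19:9560329-9584504, minus strand), which had 9.73, 11.8 and 9.75 FPKM in DMSO and 5.58, 5.34 and 5.43 FPKM in PD. All PD values of ZNF121 were below all DMSO values, and the log2 fold change was -0.82 ± 0.07 with an adjusted p of 8.3e-05. Groups without overlap were a condition for naming the largest rises and falls, so their separation is no further result. With voom the order differed, since ZNF837 rose by 1.32 against 1.06 for ZNF296 on the log2 scale, and ZNF221 had -1.09 against -0.93 for ZNF121. ZNF490 had 1.76 with voom, but it met that fit's minimum of 10 fragments in its PD libraries only. To show what lay before the genes with the largest changes, the 250 bases upstream of the RefSeq start (GRCh38.p14) are printed in the direction of the gene for the 3 largest rises and then the 3 largest falls on the log2(FPKM + 1) scale that had an entry. Capitals mark the GC box GGGCGG, the CCAAT box and the ETS motif CCGGAAG on either strand. The windows are chr19:45076479-45076728, chr19:58381031-58381280 and chr19:11738947-11739196 on the minus strand for the rises, and chr19:9584505-9584754 on the minus strand, chr19:32345360-32345609 and chr19:43827071-43827320 on the plus strand for the falls.
ZNF296: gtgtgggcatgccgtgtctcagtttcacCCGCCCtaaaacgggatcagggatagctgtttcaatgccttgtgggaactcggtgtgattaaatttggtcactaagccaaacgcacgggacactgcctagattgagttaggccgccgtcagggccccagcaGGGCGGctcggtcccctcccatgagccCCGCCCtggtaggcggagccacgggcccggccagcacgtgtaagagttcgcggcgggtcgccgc
ZNF837: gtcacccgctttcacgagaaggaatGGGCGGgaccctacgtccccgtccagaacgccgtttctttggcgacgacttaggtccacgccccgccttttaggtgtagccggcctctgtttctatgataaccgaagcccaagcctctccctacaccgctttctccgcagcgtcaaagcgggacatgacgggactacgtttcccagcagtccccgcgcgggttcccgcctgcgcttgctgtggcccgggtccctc
ZNF823: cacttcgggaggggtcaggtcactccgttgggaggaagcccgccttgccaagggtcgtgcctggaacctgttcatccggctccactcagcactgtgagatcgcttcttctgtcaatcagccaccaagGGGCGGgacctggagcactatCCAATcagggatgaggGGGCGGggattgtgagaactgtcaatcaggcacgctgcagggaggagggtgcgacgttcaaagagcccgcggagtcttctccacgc
ZNF121: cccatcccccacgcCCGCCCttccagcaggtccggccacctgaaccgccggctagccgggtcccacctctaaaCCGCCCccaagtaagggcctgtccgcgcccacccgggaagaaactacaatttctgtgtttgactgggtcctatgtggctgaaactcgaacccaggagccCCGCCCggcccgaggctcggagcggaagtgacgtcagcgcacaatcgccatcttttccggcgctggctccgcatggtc
ZNF507: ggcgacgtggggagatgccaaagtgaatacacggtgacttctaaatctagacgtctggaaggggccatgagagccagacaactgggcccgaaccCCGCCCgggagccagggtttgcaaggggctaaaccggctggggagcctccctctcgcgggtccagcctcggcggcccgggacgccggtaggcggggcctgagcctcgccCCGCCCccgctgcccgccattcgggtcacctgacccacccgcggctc
ZNF283: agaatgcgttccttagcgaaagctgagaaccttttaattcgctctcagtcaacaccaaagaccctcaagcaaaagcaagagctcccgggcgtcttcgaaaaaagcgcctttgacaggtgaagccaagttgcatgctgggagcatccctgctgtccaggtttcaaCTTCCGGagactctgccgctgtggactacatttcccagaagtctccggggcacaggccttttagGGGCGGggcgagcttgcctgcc

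GC boxes stood in all 6 windows, with 3 matches each before ZNF296 and ZNF121, so these genes did not differ in that count. A CCAAT box was found before ZNF823 only and an ETS motif before ZNF283 only. Over the whole windows of 250 bases before and 50 after the start, 183 of the 208 members had an entry, some with several starts, which gave 230 windows. The ETS motif, the binding letters of a large family of activators, was in 40% of the members' windows against 10.3% of all 35116 windows, and in 29.7% of the windows of ZNF genes on other chromosomes. The CCAAT box, bound by NF-Y, was in 50.4% against 34.6% and 39.5%, and the GC box, bound by SP1 and related factors, in 63.5% against 45.0% and 59.8%, in the same order. The E-box CACGTG was in 4.78% against 7.26%, the CRE TGACGTCA in 4.35% against 1.85% and the YY1 motif in 0.87% against 0.849% of all windows. The NRF1 motif was in 10.0% against 5.78%, and in 12.8% on other chromosomes. A window held a median of 20 CpG in the members and 14 in all.

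By direction, the ETS motif was in 11 of 27 windows of members called higher (40.7%), in 12 of 31 of those called lower (38.7%) and in 41.3% of the 121 windows of those not called. The GC box was in 74.1% of the windows of the higher members, 41.9% of those of the lower members and 64.5% of those not called. CCAAT was near 50% in each of them, at 51.9%, 54.8% and 46.3%. A match is a description of letters in the window. Between the KRAB members and those without the box, the ETS motif was in 43.9% and 22.0% of windows, and the GC box in 60.3% and 78.0%.

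Of the other 4 of the 5 largest rises, 3 were in KRAB genes. ZNF30, a KRAB gene (chr19:34926903-34945170), had 1.88, 2.22 and 2.38 FPKM in DMSO and 4.37, 3.74 and 4.67 FPKM in PD, with a log2 fold change of 0.74 ± 0.09 and an adjusted p of 0.00041. ZNF837, which lacks the box and has 8 finger patterns (chr19:58367618-58381030), had 0.725, 0.776 and 0.479 FPKM in DMSO against 1.41, 1.70 and 1.83 FPKM in PD. Its log2 fold change was 0.68 ± 0.11 on the FPKM scale and 1.32 with voom, and the groups did not overlap. Exons of ZNF837 overlap those of ZNF497-AS1 on the other strand. ZNF823, a KRAB gene (chr19:11721265-11739009), had 0.541, 0.825 and 0.927 FPKM in DMSO and 1.51, 1.72 and 1.57 FPKM in PD, a log2 fold change of 0.56 ± 0.11. ZNF28 (chr19:52797408-52857600) had 1.96, 2.59 and 1.84 FPKM in DMSO and 3.65, 3.26 and 3.52 FPKM in PD, a log2 fold change of 0.52 ± 0.10. In each of these 4 genes the lowest PD value was above the highest DMSO value, which the rule for naming them required. Exons of ZNF28 and its neighbour ZNF468 overlap on the same strand, so their levels are uncertain where fragments could go to either.

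Among the large falls, ZNF221 (chr19:43951223-43967709), a KRAB gene, had 2.15, 2.68 and 2.60 FPKM in DMSO and 1.22, 1.07 and 1.17 FPKM in PD, a log2 fold change of -0.69 ± 0.08 with an adjusted p of 0.00037. ZNF253 (chr19:19865882-19894674), also with KRAB, had 4.10, 4.08 and 3.58 FPKM in DMSO and 2.11, 2.00 and 2.37 FPKM in PD, a log2 fold change of -0.64 ± 0.07. An unnamed gene overlaps ZNF253 on the other strand, and the kit does not mark strand, so reads of the pair cannot be told apart. ZNF507, which has no KRAB box (chr19:32345594-32387667), had 6.02, 5.84 and 5.28 FPKM in DMSO and 3.74, 2.96 and 3.25 FPKM in PD, a log2 fold change of -0.64 ± 0.08. ZNF283 (chr19:43827321-43852017), with KRAB, had 2.81, 2.33 and 2.73 FPKM in DMSO against 1.60, 1.36 and 1.34 FPKM in PD, a log2 fold change of -0.57 ± 0.08. The groups stood apart in all 4, again as the rule for naming them required.

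**Figure D2:**
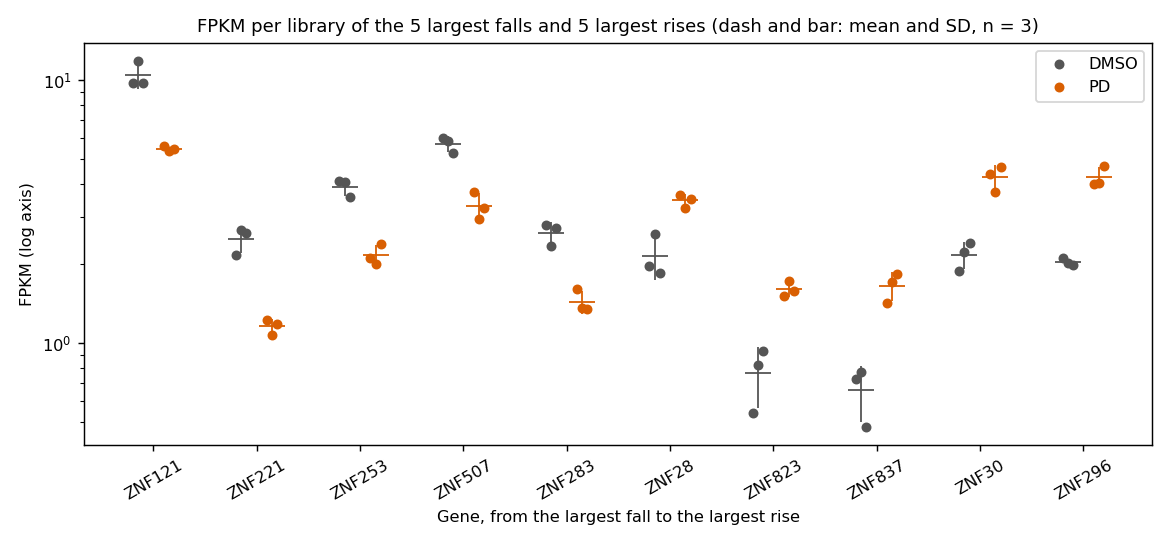
FPKM (vertical log axis) in each of the 3 DMSO and 3 PD libraries for the 5 members with the largest falls (left) and the 5 with the largest rises (right) on the log2(FPKM + 1) scale, with the mean and SD of each group. In every gene the PD points lie wholly on one side of the DMSO points, as the rule for naming these genes required. Group means of DMSO against PD run from 10.4 against 5.45 FPKM in ZNF121 to 2.03 against 4.27 FPKM in ZNF296.

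The 5 most abundant members were lower in PD in 4 cases. Besides ZNF146, with a log2 fold change of -0.50 ± 0.05 and an adjusted p of 0.00013, these were ZNF302 at 13.4 ± 0.85 FPKM in DMSO and 10.8 ± 0.16 FPKM in PD, ZNF787 at 11.3 ± 0.83 and 8.98 ± 0.65 FPKM, and ZNF121. ZNF302 carries a KRAB box and ZNF787 does not. ZNF317 was the exception, at 6.19 ± 0.24 FPKM in DMSO and 7.85 ± 0.39 FPKM in PD (SD, n = 3). Exons of ZNF146 overlap those of ZNF565 on the other strand. Across the 161 tested members, the log2 fold change had a Spearman rho of -0.29 with the mean number of fragments, and of -0.14 over the 11047 other protein-coding genes, in values that share libraries and depth.

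Members known from earlier work on transposable elements and development were described next, as a list fixed by name. ZNF91, known as a repressor of SVA retrotransposons, had 3.72, 3.55 and 3.24 FPKM in DMSO and 2.68, 2.13 and 2.25 FPKM in PD, and fell with a log2 fold change of -0.43 ± 0.08 and an adjusted p of 0.0032. ZNF93, known for binding LINE-1 elements, had a value above 0 in 1 DMSO library only, at 0.0366 FPKM, and ZNF568 in 2, at up to 0.0126 FPKM, so neither could be tested. ZNF331, an imprinted KRAB gene, had 7.67, 7.68 and 8.21 FPKM in DMSO and 5.70, 5.87 and 5.73 FPKM in PD, with a log2 fold change of -0.39 ± 0.05 and an adjusted p of 0.00032. ZNF224, a KRAB gene known as a transcriptional repressor, had 1.81, 1.97 and 1.70 FPKM in DMSO and 1.51, 1.10 and 1.10 FPKM in PD, and its call at a log2 fold change of -0.34 ± 0.10 was lost without any 1 of 3 libraries (DMSO replicate 2, PD replicate 2 or PD replicate 3), at adjusted p-values of 0.0614, 0.0609 and 0.0606. ZNF808 had 1.62, 1.36 and 1.25 FPKM in DMSO and 1.04, 1.16 and 1.14 FPKM in PD, and it was not called at an adjusted p of 0.10. It shares exon positions with ZNF701 on its strand. ZNF274, which is known to bind the zinc finger genes of chromosome 19 themselves and to bring SETDB1 there, had 2.29, 2.02 and 2.41 FPKM in DMSO and 1.87, 2.07 and 2.28 FPKM in PD. The ZNF274 groups overlapped, with a log2 fold change of -0.08 ± 0.08 and an adjusted p of 0.45.

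Members were joined into clusters where neighbours lay at most 1 Mb apart, which gave 17 clusters, 7 of them with at least 8 tested members. These 7 held 183 of the 208 members and 140 of the 161 tested. Members of a cluster share their position and are not replicates, so no test was made over them. The calls of each cluster are given beside the 31.9% of all genes called higher and the 26.2% called lower, and a difference between clusters was not tested. In the cluster from ZNF175 to ZNF331 (chr19:51571283-53580269, 34 members, 33 with KRAB), 28 were tested, 7 were higher, 1 was lower and 20 were not called. The median log2 fold change there was 0.13 and 21 of the 28 lay above 0. Without PD replicate 1 that median was 0.073. The 1 member called lower was ZNF331, which closes the cluster, and in the other settings 1 to 3 members were called lower. PD lay wholly above DMSO in 11 of the 28 tested members of the cluster and wholly below in 3. Over all genes tested the groups did not overlap in 65.4%. In the cluster from ZNF565 to ZNF573 (chr19:36182276-37817300), 15 of 26 members were tested, 0 were higher and 3 were lower by limma, with 12 not called, and voom also called 0 of its 20 as higher. At an unadjusted limma p below 0.05, 0 were higher there as well. The largest fall there was that of ZNF146. The largest rise, that of ZNF540, was not called at a log2 fold change of 0.12 ± 0.10, with 0.390, 0.457 and 0.489 FPKM in DMSO and 0.643, 0.530 and 0.556 FPKM in PD. All its DMSO values lay below the minimum of 0.5 FPKM, which it passed only through PD. Exons of ZNF540 overlap those of ZNF571-AS1 on the same strand and of ZFP30 on the other.

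**Figure D3:**
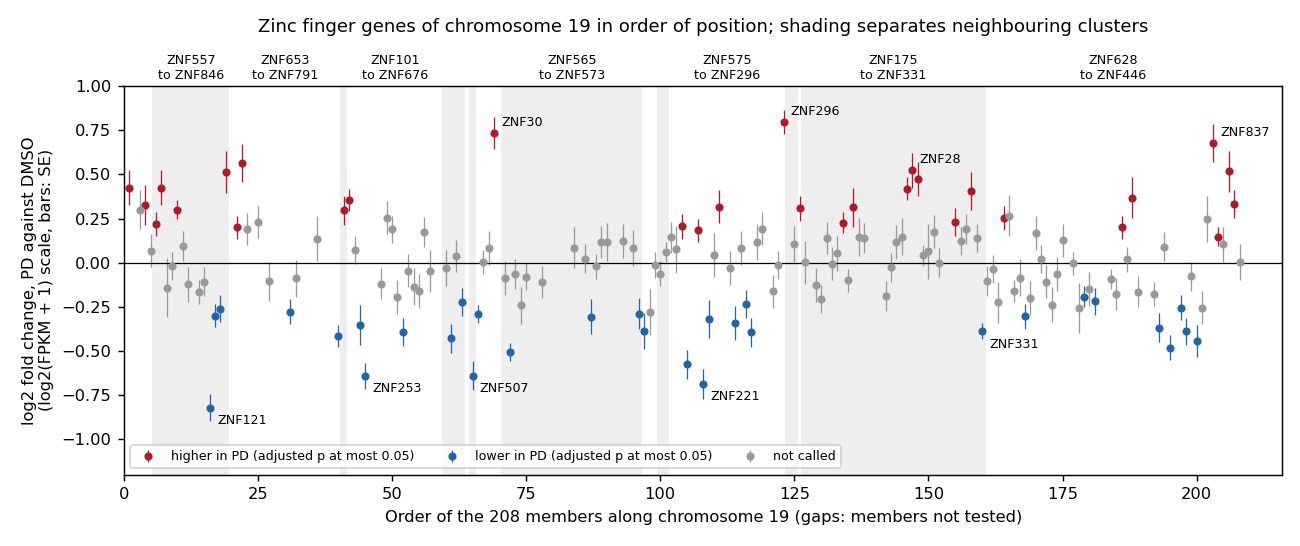
Log2 fold change of PD against DMSO on the log2(FPKM + 1) scale with its SE (vertical axis) for the 161 tested members in their order along chromosome 19 (horizontal axis), coloured by call, with shading that separates neighbouring clusters and the names of the 7 large clusters above. Every large cluster but that from ZNF565 to ZNF573 holds called members of both directions. In the cluster from ZNF175 to ZNF331, 7 of the 8 called lie above 0.

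Within the ZNF175 to ZNF331 cluster, the 7 higher members were ZNF841, ZNF836, ZNF600, ZNF28, ZNF468, ZNF845 and ZNF761. ZNF600, ZNF28 and ZNF468 are direct neighbours. ZNF600 had 1.64, 1.62 and 1.51 FPKM in DMSO and 2.57, 2.44 and 2.38 FPKM in PD, a log2 fold change of 0.42 ± 0.06. ZNF468 had 3.29, 3.47 and 3.18 FPKM in DMSO and 5.79, 4.22 and 5.05 FPKM in PD, a log2 fold change of 0.47 ± 0.10. In ZNF761 the values were 2.52, 2.62 and 2.12 FPKM in DMSO and 4.11, 2.94 and 3.58 FPKM in PD. PD replicate 1 gave the highest value of ZNF468 and of ZNF761, and PD replicate 2 the lowest in PD. The same order held for the mean log2(FPKM + 1) of all 28 tested members, which was 1.421, 1.430 and 1.404 in DMSO and 1.598, 1.459 and 1.524 in PD, without overlap of the groups. Without PD replicate 3 the number of higher members fell from 7 to 4, and in the other settings it lay between 5 and 8.

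The cluster at the end of the long arm, from ZNF628 to ZNF446 (chr19:55476617-58481230), was the largest with 48 members, of which 42 were tested, 7 were higher, 8 were lower and 27 were not called, with a median log2 fold change of -0.09. Its largest rise was that of ZNF837 and its largest fall that of ZNF587B, at 4.19, 4.07 and 4.14 FPKM in DMSO and 3.01, 2.41 and 2.65 FPKM in PD, a log2 fold change of -0.48 ± 0.07 with an adjusted p of 0.00091. Called members close to ZNF587B were also lower, namely ZNF586 at -0.37, ZNF587 at -0.25 and ZNF417 at -0.39 on the log2 scale. The call of ZNF587 was lost without DMSO replicate 2 or PD replicate 3. Exons of ZNF586 and ZNF587B overlap on the same strand. Of the 100-base exon windows of ZNF417, 19.2% occur a further time in the genome, which was the highest share among the members, and 13.2% of those of ZNF587 did, so reads of this group may be split between copies. ZNF324B and ZNF324, near the end of the same cluster, were higher at 0.52 ± 0.12 and 0.33 ± 0.08, and 15.4% of the windows of ZNF324B occur elsewhere.

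In the cluster from ZNF575 to ZNF296 (chr19:43525497-45076478), 19 of 22 members were tested, 4 were higher and 6 were lower. The lower members ZNF283, ZNF221, ZNF155, ZNF224, ZNF234 and ZNF226 lie in the proximal stretch, which also holds the higher members ZNF428, ZNF45 and ZNF222, and ZNF296 stands alone at the distal end. The cluster from ZNF557 to ZNF846 (chr19:7069703-9793180) had 13 tested members, 4 higher and 3 lower. Its 3 lower members ZNF121, ZNF561 and ZNF562 are neighbours, with log2 fold changes of -0.82, -0.30 and -0.26. The call of ZNF562 was lost without DMSO replicate 2 or PD replicate 3. ZNF846, further along, had 0.622, 0.259 and 0.344 FPKM in DMSO and 0.919, 1.11 and 0.972 FPKM in PD, a log2 fold change of 0.51 ± 0.12 and of 1.36 with voom. Its mean was 0.408 FPKM in DMSO and 1.00 FPKM in PD, so it passed the minimum of 0.5 FPKM only through its PD level. It had 17 fragments or more in every library and so met the minimum for voom in both groups. Exons of ZNF846 overlap those of an unnamed gene on the same strand, and 4.47% of its exon windows occur a further time in the genome.

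The cluster from ZNF653 to ZNF791 (chr19:11483427-12640098) had 12 of its 21 members below 0.5 FPKM. Of the 9 tested, 2 were higher and 2 were lower, and 1 was higher without any 1 of 5 libraries (DMSO replicates 2 and 3 and each PD replicate). The median log2 fold change of the 9 was 0.14. That median was -0.088 with a minimum of 1 FPKM, 0.035 without PD replicate 1 and up to 0.34 in the other settings, the highest with voom. ZNF791 was the largest fall there, at 5.93, 5.80 and 5.31 FPKM in DMSO and 4.19, 3.72 and 4.11 FPKM in PD, with a log2 fold change of -0.42 ± 0.06. Voom could fit 14 of its members and called 7 as higher and 3 as lower. Among them, ZNF490 had 9, 7 and 4 fragments in DMSO and 30, 20 and 20 in PD, ZNF442 had 13, 5 and 22 against 26, 43 and 27, and ZNF799 had 17, 29 and 28 against 49, 67 and 51. The groups did not overlap in these 3 genes, though the counts are small. ZNF490 met the minimum of 10 fragments for voom in its PD libraries only. Exons of ZNF490 and ZNF799 overlap those of unnamed genes on the same strand, and 10.6% of the exon windows of ZNF799 occur a further time in the genome. In the pericentromeric cluster from ZNF101 to ZNF676 (chr19:19668796-22215801), 14 of 18 members were tested, 1 was higher and 3 were lower. ZNF101 rose from 2.16, 1.91 and 2.03 FPKM in DMSO to 2.95, 2.93 and 2.77 FPKM in PD, a log2 fold change of 0.36 ± 0.06, and ZNF253 had the largest fall.

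**Figure D4:**
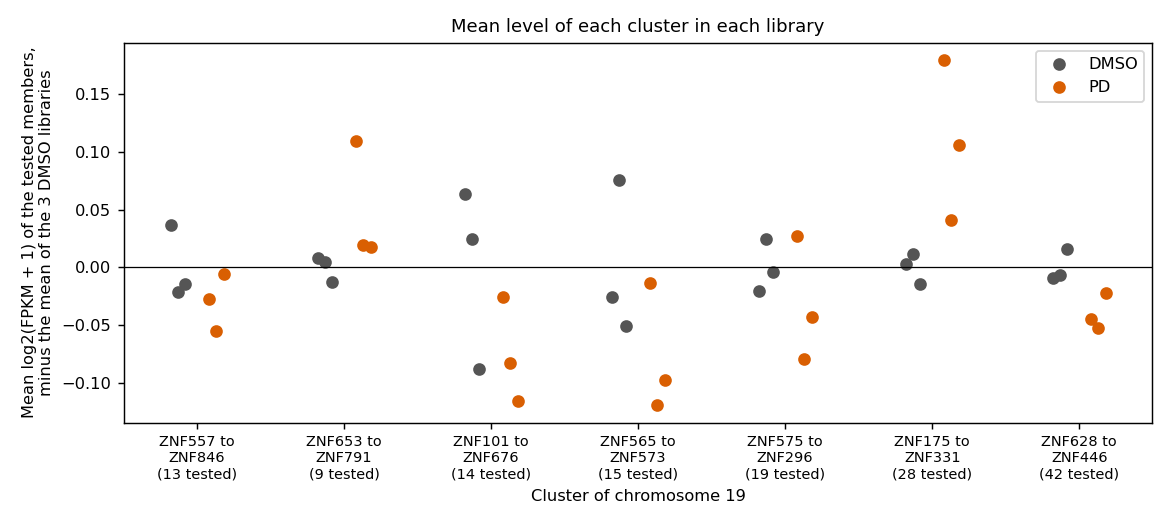
Mean log2(FPKM + 1) of the tested members in each library, minus the mean of the 3 DMSO libraries (vertical axis), for the 7 clusters with at least 8 tested members (horizontal axis), DMSO in grey and PD in orange. The PD points lie wholly above the DMSO points in the ZNF175 to ZNF331 and the ZNF653 to ZNF791 clusters and wholly below them in the ZNF628 to ZNF446 cluster, and overlap them in the other 4. Margins are narrow. Before the subtraction, the lowest PD mean of ZNF653 to ZNF791 was 1.296 and the highest DMSO mean 1.287. For ZNF628 to ZNF446 the highest PD mean was 1.637 and the lowest DMSO mean 1.650.

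Features that the rule did not use were set beside the changes. Of the 133 tested KRAB members 37.6% were called, 23 higher and 27 lower, and of the 28 without the box 39.3% were called, 7 higher and 4 lower. The median log2 fold change was -0.003 with the box and -0.007 without. Exonic GC content differed more, with a median of 46.0% in the higher members and 42.6% in the lower ones, against 42.8% in those not called. Over the 161 tested members the log2 fold change had a Spearman rho of 0.22 with GC content and of -0.24 with exon length, and over the 11047 other protein-coding genes the values were 0.24 and -0.12. With the number of finger patterns rho was 0.03. After a loess curve on GC content and length was taken off each library, rho with GC was -0.05, and 21 members were higher and 42 lower. Exons of 130 of the 208 members overlap those of another gene. Among the tested, 34.4% of the 96 with an overlap and 43.1% of the 65 without were called. Of the members, 36 have more than 1% of their 100-base exon windows a further time in the genome, 28 of these were tested, and 5 were called higher and 8 lower, where 58.1% of all genes were called.

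Cofactors of the KRAB proteins moved in both directions. Of 32 genes for cofactors and heterochromatin proteins, all were tested, 7 were higher in PD, 17 were lower and 8 were not called, beside the 31.9% higher and 26.2% lower over all genes, and the median log2 fold change was -0.10. No gene of the list changed 2-fold. TRIM28, the corepressor that KRAB domains bind, had 46.5, 43.9 and 46.8 FPKM in DMSO and 58.6, 61.9 and 62.5 FPKM in PD, and rose with a log2 fold change of 0.41 ± 0.04 and an adjusted p of 0.00011. SETDB1, the methyltransferase that TRIM28 recruits, had 6.32, 6.93 and 7.08 FPKM in DMSO and 4.93, 4.70 and 5.00 FPKM in PD, and fell with a log2 fold change of -0.40 ± 0.06 and an adjusted p of 0.00066. The 2 genes thus changed in opposite directions, each without overlap of the groups. SETDB1 exons overlap CERS2 on the other strand.

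The 3 genes for HP1 proteins, which read H3K9 methylation, also differed from each other. CBX5, which codes for HP1 alpha, had 22.1, 21.9 and 20.3 FPKM in DMSO and 37.2, 37.4 and 35.2 FPKM in PD, the largest rise of the list at 0.74 ± 0.05. CBX3, for HP1 gamma, fell from 73.1, 68.3 and 62.9 FPKM to 50.1, 48.3 and 47.2 FPKM, a log2 fold change of -0.48 ± 0.06, and its exons overlap HNRNPA2B1 on the other strand. CBX1, for HP1 beta, had -0.10 ± 0.03 and an adjusted p of 0.043, a call that was lost without any 1 of 5 libraries (each DMSO replicate, PD replicates 1 and 2). Among the other genes, TRIM24, a relative of TRIM28, rose at 0.41 ± 0.06, from 5.53 ± 0.09 to 7.68 ± 0.52 FPKM (SD, n = 3). CHD3, a NuRD subunit that TRIM28 is known to bind, had the largest fall, from 38.6, 38.6 and 40.6 FPKM to 25.2, 25.6 and 26.2 FPKM, a log2 fold change of -0.59 ± 0.04. ATRX, a remodeller of heterochromatin, fell from 6.15 ± 0.37 to 3.996 ± 0.13 FPKM, a log2 fold change of -0.52 ± 0.06. Of the HUSH complex, which silences repeated elements with SETDB1, PPHLN1 fell at -0.42 ± 0.06 and MPHOSPH8 was not called at 0.01 ± 0.04. TASOR was called at -0.21 ± 0.06 with all libraries, but not without DMSO replicate 1 or 2 or PD replicate 2 or 3.

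**Figure D5:**
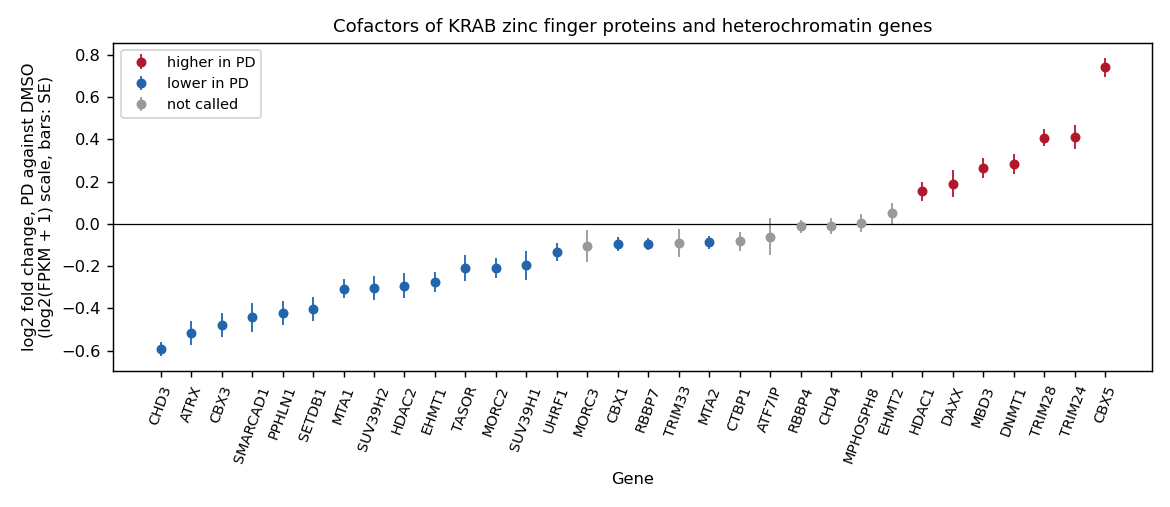
Log2 fold change of PD against DMSO on the log2(FPKM + 1) scale with its SE (vertical axis) for the 32 cofactor and heterochromatin genes (horizontal axis), in order of size and coloured by call. CHD3 stands lowest at -0.59 and CBX5 highest at 0.74, with SETDB1 at -0.40 and TRIM28 at 0.41.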

How the data were processed

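Per the labels and the study's methods, RNA of 3 PD and 3 DMSO plates was selected by poly-T beads, prepared with a kit that does not mark strand and aligned with HISAT2 to hg38, and the submitters' processing notes name HTSeq 0.6.0. The authors deposited FPKM per Ensembl gene, the unit used here, and depth was recovered from it. Fragments were the whole multiples of the value of 1 fragment per gene, within 0.001 fragments, with the GENCODE 44 exon length for 12879 genes and a fitted length for 15682. This recovery was not possible for 2 genes. Symbols, positions and coding sequences came from GENCODE 44 (GRCh38), the same build, and promoters from RefSeq (GRCh38.p14).

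PD was compared with DMSO with limma 3.58.1 (R 4.3.3, eBayes with trend) on log2(FPKM + 1) for genes that averaged 0.5 FPKM or more, with Benjamini-Hochberg adjustment over all of them. With 3 against 3 libraries an exact permutation test of 1 gene cannot give a two-sided p below 0.1. The script was tested on simulated data. Other settings were a pseudocount of 0.1, no minimum or 1 FPKM, median-of-ratios and upper quartile scaling, a block, a loess on GC content and length, voom on fragments (at least 10 in 3 libraries), each library left out, gaps of 0.5 and 2 Mb and a narrower range of like genes. Members and lists were chosen with earlier results of these data known. Genes named were the 5 largest rises and falls among called members whose groups do not overlap, members called with 2-fold, the 5 most abundant, the largest rise and fall of each large cluster, 7 members fixed by name, TRIM28, SETDB1 and the 3 largest changes each way of the cofactor list. Further called members near these in a cluster, members called 2-fold by voom, CBX1 and the HUSH genes were named after their values were seen. Finger, KRAB and SCAN patterns were read from translated GENCODE coding sequences, with the KRAB consensus taken from 134 of these proteins. A SCAN pattern was found in 2 members. Fragments are not independent molecules where PCR copied them.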

Additional observations from a re-analysis of the deposited data

How the results depend on the processing

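Members called higher numbered 30 and, in other settings, between 21 and 39, and members called lower 31 and between 24 and 43. Leaving out 1 library gave 19 to 24 higher, the lowest without PD replicate 3, and 21 to 31 lower. With a pseudocount of 0.1, 4 members were higher and 1 was lower by 2-fold, and with voom 7 and 1, against 0 in the FPKM fit with a pseudocount of 1. The members' median log2 fold change was -0.033 under upper quartile scaling and from -0.036 to 0.022 when 1 library was left out. That scaling gave 21 higher and 37 lower members, and the loess on GC content and length 21 and 42. The loess also left 4 cofactor genes higher in place of 7, and moved the rho with GC content from 0.22 to -0.05. Cofactor genes called lower numbered 19 after the loess in place of 17, and 13 with no minimum on FPKM. When 1 library was left out, 12 to 14 cofactor genes were lower and 5 to 6 higher. With gaps of 2 Mb the cluster that holds ZNF28 merged with its neighbours and had 15 higher and 9 lower of 72 tested members in place of 7 and 1 of 28, and its median log2 fold change was 0.01, not 0.13. At the 1 Mb gap the median was 0.059 with no minimum on FPKM, and the median of the ZNF628 to ZNF446 cluster was -0.18 after the loess. In the narrower range of like genes 52.4% of the members were called. The cause of these shifts was not tested, apart from the construction of each setting. Of 628 values for genes named with a test in other settings, 604 kept their direction and side of the threshold and 22 lost the call, in ZNF224, ZNF562, ZNF587, ZNF324, CBX1 and TASOR. The other 2 were ZNF274, called at -0.22 after the loess, and ZNF808, called at -0.34 with voom.

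Deviations of same-numbered libraries from their group means correlated at -0.03, -0.01 and 0.09, and those of differently numbered libraries at -0.084 to 0.085. These values cannot decide whether the libraries were paired, as each group has only 3. With the replicate block, 24 members were higher and 27 lower. The tested members had a median of 160 fragments per library, which limits the precision of their changes, and the 47 below 0.5 FPKM were not tested in the FPKM fit.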

Other observations

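Among chromosome 19 genes of related names (ZFP, ZSCAN, ZIM or ZIK), which the rule for members did not take, 10 were in the table, 7 were tested, 1 was higher in PD and 0 were lower by limma, and voom called 1 of 8 as higher and 0 as lower. At an unadjusted limma p below 0.05, 0 were lower as well. Over all genes 31.9% were called higher and 26.2% lower by limma. The median log2 fold change of the 7 was 0.06. KRAB genes on other chromosomes gave 21 higher and 27 lower of 93 tested, with a median of -0.01, and ZNF genes there without the box gave 34 higher and 32 lower of 106, with a median of 0.06.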
